A study of Mus musculus with 8 samples.

Results

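Metallothioneins and the zinc transporters that serve the gut epithelium were examined in the proximal small intestine of mice with and without the homeodomain transcription factor Pdx1 in that epithelium. The members were 8 named genes: the metallothioneins Mt1 and Mt2, their activator Mtf1, the transporters Slc30a1, Slc30a2 and Slc30a5, and the transporters Slc39a4 and Slc39a5. Every probe set whose single annotated symbol was among these was taken, which gave 14 probe sets of 45037 on the array, for 8 of the 18193 genes measured. Mt1, Slc30a1 and Mtf1 were each read by several probe sets, and the other 5 genes by 1.

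The 4 knockout mice were Pdx1flox/flox;VilCre animals, in which exon 2 of both Pdx1 alleles, the part that encodes the homeodomain, is flanked by loxP sites and a Villin-Cre transgene carries 12.4 kb of villin 1 promoter sequence. The 4 control mice were littermates that carry the same Pdx1flox/flox alleles, and no Cre transgene is named for them. All 8 were males of 6 months on a standard diet with 4.5% fat, and the labels describe each as a brother from 1 litter. RNA came from the first 5 cm of intestine next to the pylorus, taken as whole tissue, although the villin promoter drives Cre in the epithelium alone. Labelled cRNA was hybridised to Affymetrix 3′ expression arrays. Levels are given as deposited, on the log2 scale, so that a difference of 1 is a doubling, and levels are not compared between probe sets, which differ in how strongly they bind.

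Metallothioneins are small, cysteine-rich proteins of the cytosol that hold zinc and copper and buffer their free concentrations. Their genes are switched on when the zinc-sensing factor MTF-1 binds metal response elements in their promoters, and also by glucocorticoids, oxidants and inflammatory signals. In an enterocyte, ZIP4 (Slc39a4) takes up dietary zinc at the brush border, ZIP5 (Slc39a5) moves it inward at the basolateral side, and ZnT1 (Slc30a1), also an MTF-1 target, exports it.

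Pdx1 itself was lower in every knockout sample. Its more intense probe set, 1422174_at, read 8.33, 8.61, 8.16 and 8.98 in controls 1 to 4 and 6.04, 5.91, 6.18 and 5.58 in knockouts 1 to 4, a log2 change of -2.59 (limma adjusted p = 4.16e-04), and 1422173_at changed by -1.85 (limma adjusted p = 0.00107). Whether these probe sets lie in the deleted exon was not determined. The villin gene Vil1, an epithelial marker, read 12.60 ± 0.092 in controls and 12.79 ± 0.059 in knockouts (SD, n = 4 each; limma adjusted p = 0.660). Other enterocyte markers were near the top of the scale, with the apolipoprotein Apoa1 at 14.50 ± 0.071 and 14.68 ± 0.069 in controls and knockouts (SD, n = 4 each). RNA of exocrine pancreas genes was present in both groups, with the pancreatic colipase Clps at 13.50 ± 0.51 and 13.17 ± 0.22 (SD, n = 4 each). Whether it came from adjoining pancreas was not tested. In such tissue, fewer cells of a type and less RNA per cell cannot be told apart.

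Among the members, only Mt1 passed the test. Of the 14 probe sets, 1 was higher in the knockout at a limma adjusted p under 0.05 and 0 were lower. Across the array 19 of 45037 probe sets passed, or 0.0422%, and 2 of them were higher, or 0.00444%. At an unadjusted p under 0.05 there were 3 member probe sets, all with a higher mean in the knockout (both of Mt1 and that of Slc30a5), and 0 with a lower mean, beside 7.13% of all probe sets in either direction. The ranges of the groups were apart on 2 of the 14, both of Mt1, beside 4.43% of all. By the most intense probe set of each gene, 5 members had a knockout mean above the control mean and 3 below it, with a median log2 change of 0.083, against 9393 of 18193 genes above and a median of 0.0046 over all genes.

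**Figure D1:**
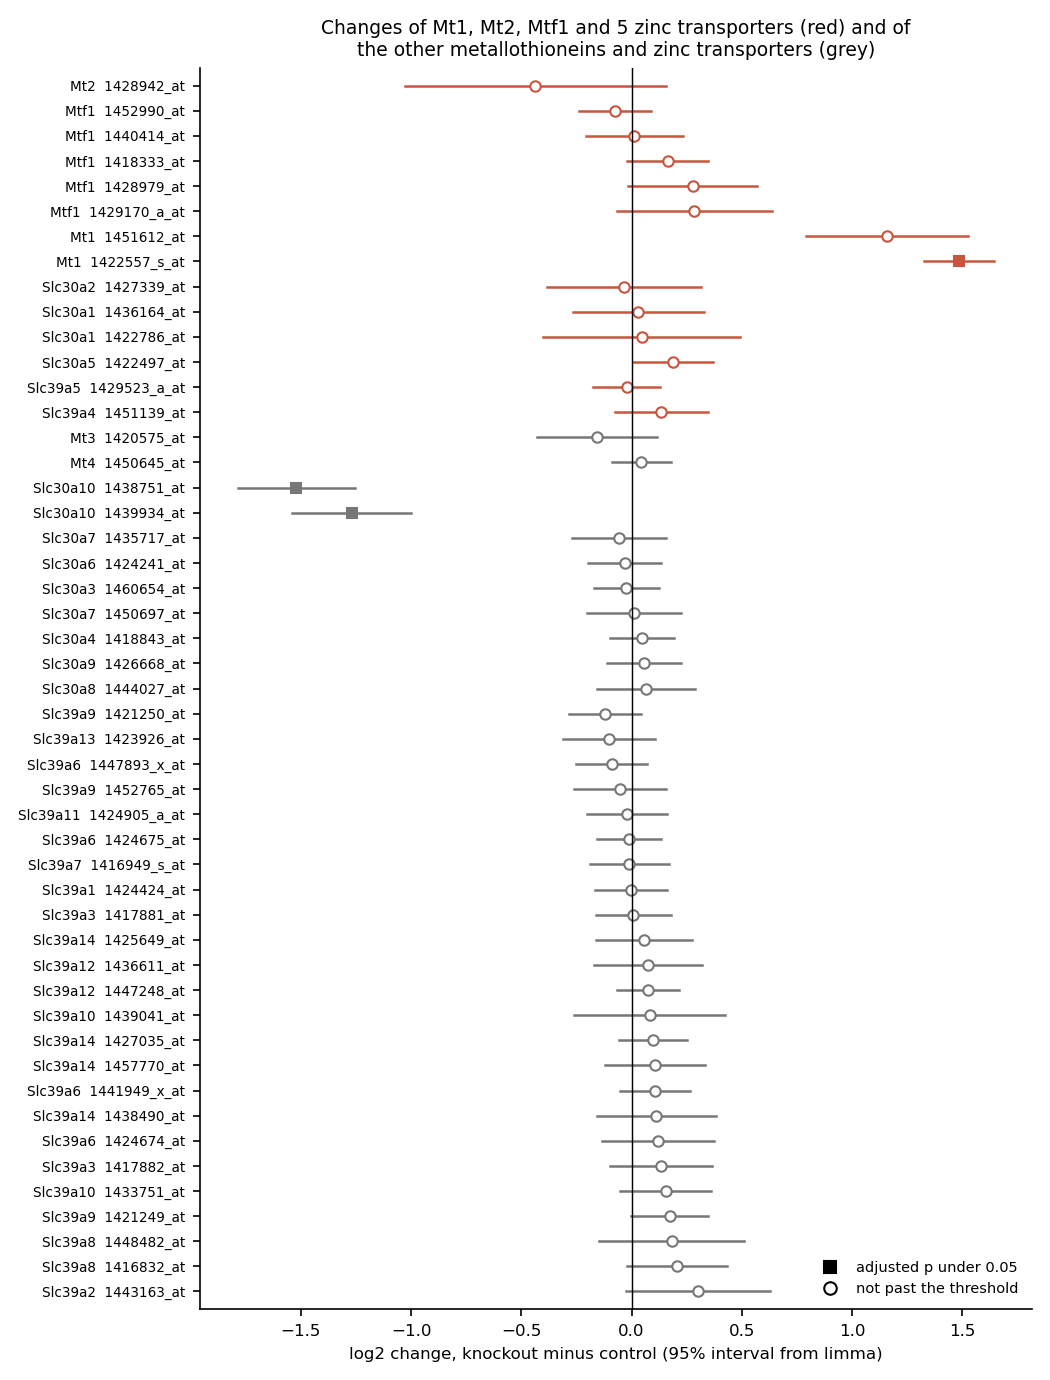
Log2 change, knockout minus control, of the 14 member probe sets (red) and of the 35 probe sets of the other metallothioneins and zinc transporters (grey), with 95% confidence intervals from limma (4 knockout and 4 control samples). Filled squares passed at an adjusted p under 0.05: the brighter Mt1 probe set at 1.48 and, in the opposite direction, both Slc30a10 probe sets at -1.27 and -1.52.

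The sequences upstream of the metallothionein genes and of Slc30a1 are shown first, since these are the textbook MTF-1 targets among the members. Each window runs from 250 bases before to 50 bases after the annotated start of the gene, 300 bases in all, from RefSeq on the mouse build GRCm38.p6. The windows lie at chr8:94178839-94179138 for Mt1, chr8:94172368-94172667 for Mt2 and chr1:191906531-191906830 for Slc30a1, all on the plus strand. The arrays themselves name no build. Capitals mark matches, on either strand, to the core of the metal response element, TGCACNC or TGCGCNC, where N is any base.
Mt1: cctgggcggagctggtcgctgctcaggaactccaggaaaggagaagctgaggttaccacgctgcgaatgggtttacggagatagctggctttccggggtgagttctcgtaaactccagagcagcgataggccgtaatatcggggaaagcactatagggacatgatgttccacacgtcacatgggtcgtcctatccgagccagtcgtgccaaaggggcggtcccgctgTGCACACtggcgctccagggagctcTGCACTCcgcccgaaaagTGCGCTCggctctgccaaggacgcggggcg
Mt2: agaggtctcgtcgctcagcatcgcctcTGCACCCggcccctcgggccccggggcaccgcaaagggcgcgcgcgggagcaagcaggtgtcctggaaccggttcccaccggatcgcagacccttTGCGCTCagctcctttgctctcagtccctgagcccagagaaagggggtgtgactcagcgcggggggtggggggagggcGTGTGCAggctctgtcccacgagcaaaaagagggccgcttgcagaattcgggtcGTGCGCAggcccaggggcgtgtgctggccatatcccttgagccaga
Slc30a1: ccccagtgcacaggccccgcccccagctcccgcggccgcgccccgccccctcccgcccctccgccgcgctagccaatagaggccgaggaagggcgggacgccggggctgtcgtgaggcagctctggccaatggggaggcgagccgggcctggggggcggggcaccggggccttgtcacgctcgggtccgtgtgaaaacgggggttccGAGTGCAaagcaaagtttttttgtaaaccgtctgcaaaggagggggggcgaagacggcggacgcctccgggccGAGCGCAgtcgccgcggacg

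The core occurred in 25.7% of the 32851 promoter windows of the table. Mt1 had 3 matches, at bases -23 to -17, 3 to 9 and 21 to 27, counted from the annotated start. At least that many were found in 1.97% of all windows. Mt2 had 4, at bases -223 to -217, -128 to -122, -50 to -44 and 5 to 11, as in 0.517% of windows. Slc30a1 and Slc30a2 each had 2, which 7.11% of windows reached. Slc30a5 had 1, and of the pair of windows listed for Slc39a5 the first had 1 and the other 0. Mtf1, the gene of the factor itself, had 0, and no window was listed for Slc39a4. A match is a run of letters and not a shown binding site. Sequence outside these windows was not searched, so the counts do not cover the whole promoter of a gene. Whether transcription begins at the annotated starts was not tested. A position therefore does not place a match before or after the RNA start in use.

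A pair of other motifs was searched in the same windows. The homeodomain core TAAT, searched on either strand, occurred once in the Mt1 window, at bases -117 to -114, and had 0 matches in that of Mt2. It occurred in 58.0% of all windows and in 3 of the 8 member windows. The antioxidant element core TGACNNNGC, on either strand, was at bases -79 to -71 of Mt2, with 0 matches in the Mt1 window. It occurred in 12.4% of all windows and in 4 of the 8 member windows. The motifs shared no bases in the Mt1 and Mt2 windows. Since bases beyond the windows were not searched, these counts do not show a difference between the promoters of Mt1 and Mt2.

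Mt1 rose in the knockout by its brighter probe set, 1422557_s_at. The controls read 12.21, 12.11, 12.32 and 12.15, and the knockouts 13.64, 13.80, 13.66 and 13.64. All 4 knockouts lay more than 1 log2 unit above the highest control, and the spread within each group was small. The means were 12.20 ± 0.090 in controls and 13.68 ± 0.077 in knockouts (SD, n = 4 each). The log2 change was 1.48 (SE 0.072, 95% interval 1.32 to 1.64), or 2.80-fold, with a limma adjusted p of 4.70e-05, the smallest p of all 45037 probe sets. The suffix _s_at marks a design whose probes may match more than 1 transcript, so that this reading may include RNA of another gene.

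A dimmer Mt1 probe set, 1451612_at, read 5.08, 4.88, 5.14 and 5.59 in the controls and 6.63, 6.42, 5.96 and 6.31 in the knockouts. All knockouts again lay above all controls, but the values were more spread in both groups. The means were 5.17 ± 0.30 and 6.33 ± 0.28 (SD, n = 4 each), a log2 change of 1.16 (SE 0.17, 95% interval 0.79 to 1.53), and the limma adjusted p of 0.0627 missed the threshold, at rank 23 of all probe sets by p. Without knockout 3, the lowest of its group, the limma adjusted p was 0.0227, and without control 4, the highest of its group, it was 0.0173. Each of the other 6 samples left out in turn gave a limma adjusted p of 0.171 to 0.280, and over all 20 alternatives the adjusted p ran from 8.64e-04 to 1.00, with log2 changes of 1.01 to 1.75.

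Mt2 encodes the second widely expressed metallothionein and lies next to Mt1 on the chromosome. Its probe set, 1428942_at, read 10.41, 10.40, 10.56 and 10.37 in the controls and 9.23, 10.83, 10.19 and 9.74 in the knockouts. Knockout 2 was above every control and the other 3 knockouts were below every control. The means were 10.43 ± 0.086 in controls and 10.00 ± 0.68 in knockouts (SD, n = 4 each), a log2 change of -0.44 (SE 0.27, 95% interval -1.03 to 0.16; limma adjusted p = 0.772). Without knockout 1 the change was -0.18 and without knockout 2 it was -0.71. The controls spanned 0.19 and the knockouts 1.60 log2 units, whereas the brighter Mt1 probe set spanned 0.21 in controls and 0.16 in knockouts.

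**Figure D2:**
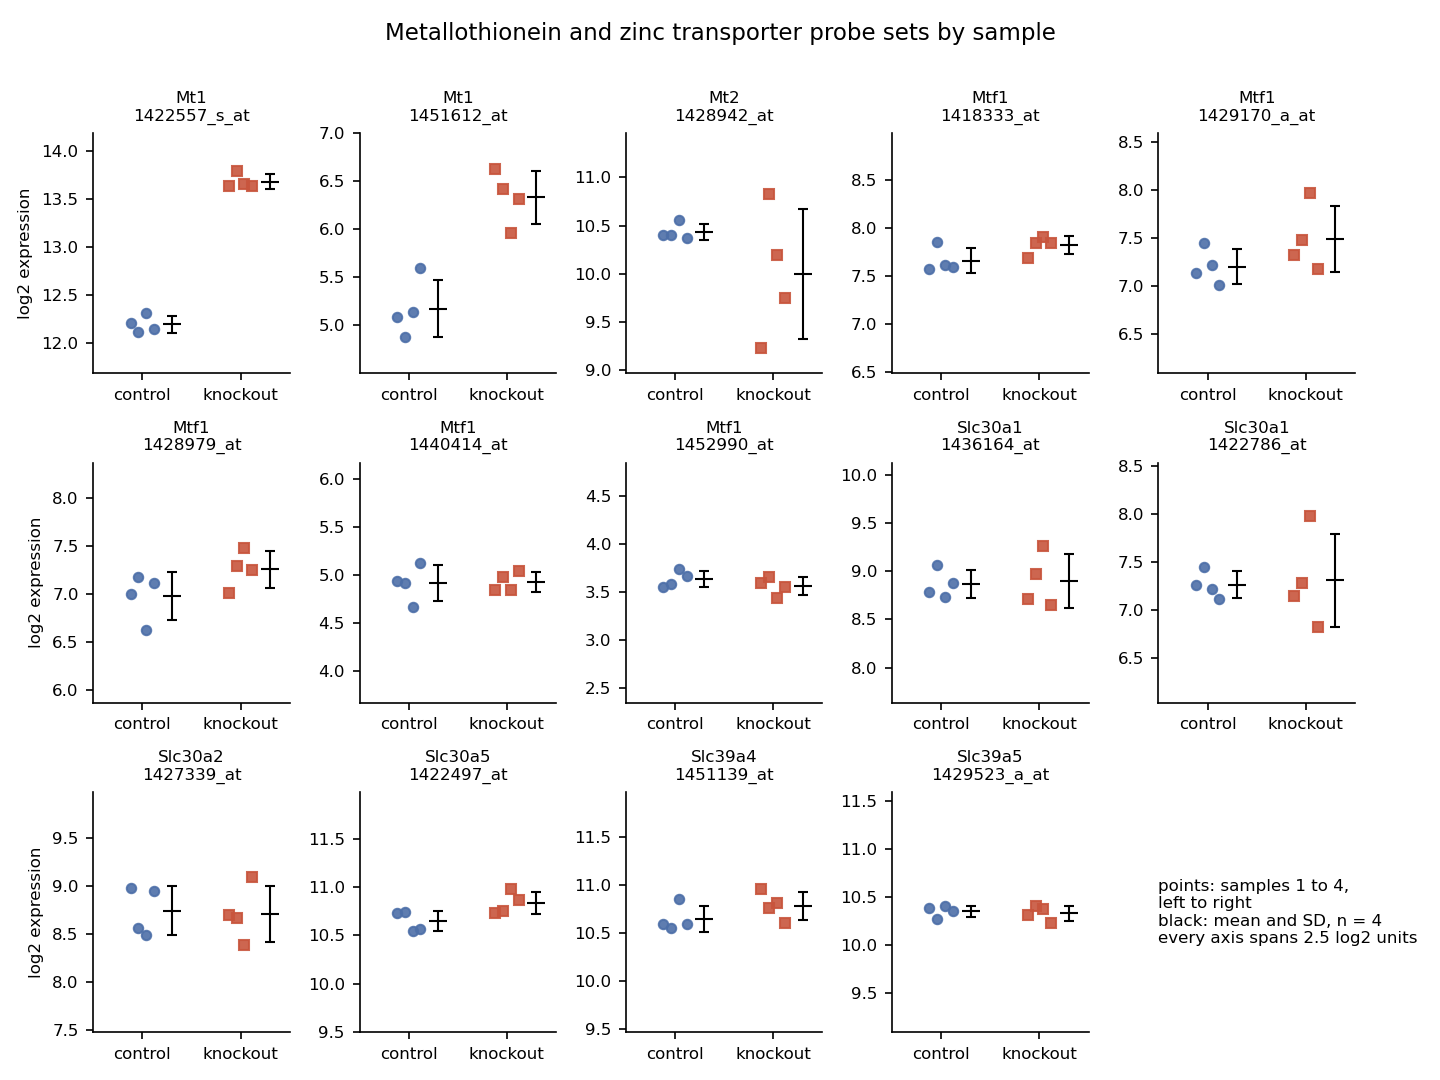
Log2 level of the 14 member probe sets in each of the 4 control samples (blue circles) and 4 knockout samples (red squares), with the group mean and SD in black and axes of equal span. The knockouts of the brighter Mt1 probe set lie between 13.64 and 13.80, above controls of at most 12.32, and those of Mt2 scatter from 9.23 to 10.83.

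The contrast between the neighbouring genes was also measured within each sample. For every sample the deviation of Mt1 from its control mean was taken, and the same deviation of Mt2 was subtracted. The controls gave 0.042, -0.050, -0.0054 and 0.014, and the knockouts 2.65, 1.21, 1.71 and 2.13. In all 4 knockouts Mt1 thus stood higher, relative to Mt2, than in any control. The mean difference between groups was 1.92 log2 units (SD 0.61 in knockouts and 0.039 in controls, n = 4 each; two-sided exact permutation test, p = 0.0286, the smallest that 4 against 4 samples can give). This comparison was chosen after the values were seen. In the knockouts Mt1 lay 1.44 to 1.60 above its control mean and Mt2 at most 0.39 above its own. The groups were thus known to separate before the test, and its p largely restates the step in Mt1. It is a description and no separate evidence.

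**Figure D3:**
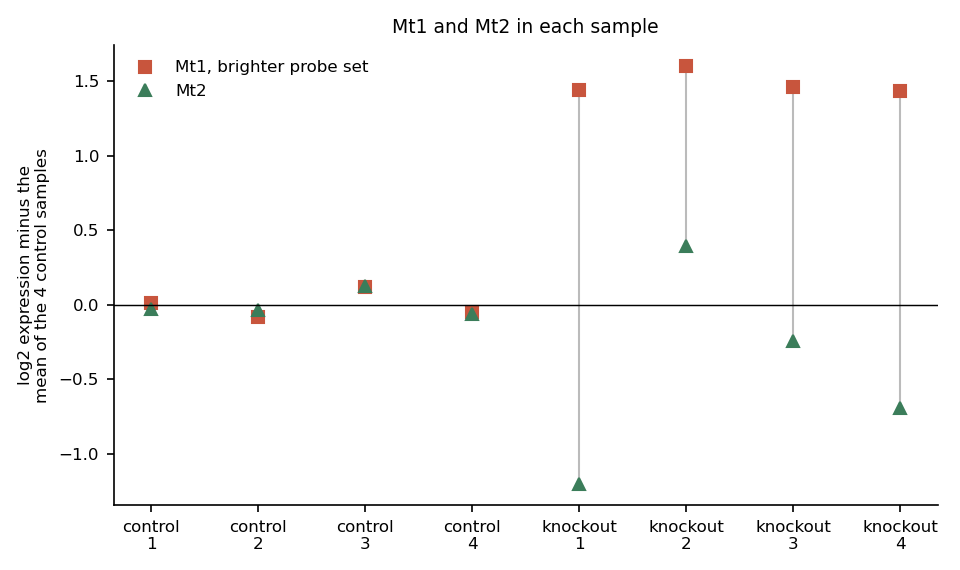
Log2 level of Mt1 (brighter probe set, squares) and Mt2 (triangles) in each of the 4 control and 4 knockout samples, each minus its control mean, with a line that joins both genes of a sample. In the knockouts Mt1 lies at 1.44 to 1.60 and Mt2 between -1.21 and 0.39.

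Paneth cell markers varied among the same samples, and not in a single order. Pla2g2a, a secreted antimicrobial phospholipase of Paneth cells, read 14.08, 14.06, 13.05 and 12.60 in the controls and 8.67, 13.95, 12.84 and 12.28 in the knockouts. Knockout 1 was lowest and knockout 2 highest, as for Mt2, an order noticed after the values were seen. The controls spread by more than 1 log2 unit for Pla2g2a while their Mt2 values lay close together. Other markers ran another way: knockout 1 was the highest knockout for the antimicrobial ribonuclease Ang4, at 13.62 against 12.18 to 12.73 in the other 3, and for the lectin Itln1, at 12.80 against 12.09 to 12.57. The mean deviation over all 8 measured Paneth markers of 13 listed, Slc30a2 among them, was between 0.12 and 0.26 in controls and between -0.49 and 0.080 in knockouts (two-sided exact permutation test, p = 0.0286). Pla2g2a was also left out, a choice made after the values were seen. The score was then -0.025 to 0.25 in controls and -0.27 to 0.013 in knockouts (two-sided exact permutation test, p = 0.0571). These ranges overlapped through knockout 1 alone, at 0.013. In this list 7 of 8 markers had a knockout mean below the control mean (median log2 change -0.18), and 0 passed the test. Habp2 and Nupr1 had the smallest p of the list, with log2 changes of -0.31 and -0.72 (limma adjusted p = 0.527 and 0.671). Nupr1 read 10.21, 9.52, 8.87 and 10.37 in the controls. That is the order of their mean deviations over exocrine pancreas markers, at 0.64, 0.29, -1.14 and 0.99. Knockout 3 was the highest knockout for both. Whether the Nupr1 values, which enter all these Paneth scores, come from Paneth cells was not tested. For Habp2 every knockout lay below every control. The flattest were lysozyme Lyz1 at -0.027 and matrilysin Mmp7 at 0.0051. The part of Paneth cell RNA in the metallothionein values was not tested.

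The genes around the metallothionein pair did not pass. On mouse chromosome 8 the annotation lists 16 other protein-coding genes in the window of 8 before Mt2 and 8 after Mt1, and 14 of them were measured. Of these 0 passed at a limma adjusted p under 0.05. Mt4 and Mt3, metallothioneins of squamous epithelia and of brain, lie next to Mt2 and had log2 changes of 0.043 and -0.16 (limma adjusted p = 0.912 and 0.824). On the other side of Mt1, the nucleoporin gene Nup93 had a log2 change of 0.032 and the sodium-chloride cotransporter gene Slc12a3 of -0.20 (limma adjusted p = 0.974 and 0.732). The highest mean change was 0.33, for the immune regulator Nlrc5, with a 95% interval of -0.69 to 1.35.

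**Figure D4:**
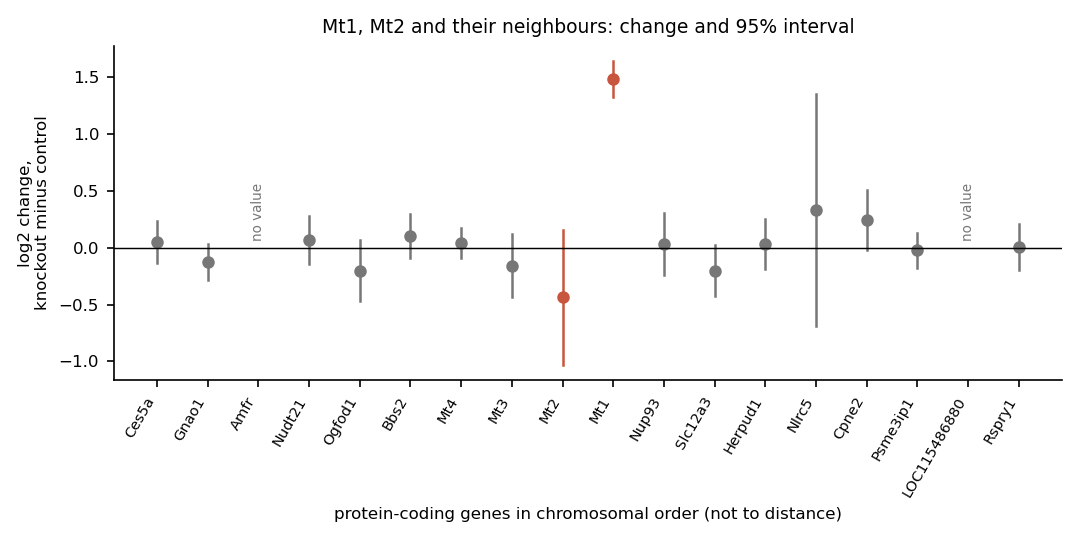
Log2 change, knockout minus control, of the protein-coding genes around Mt2 and Mt1 in annotated order, by the most intense probe set of each, as points with 95% intervals from limma (n = 4 a group); 2 genes had no value. Mt1 at 1.48 stands above all the others measured, which lie between -0.44 and 0.33.

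Mtf1, which encodes the zinc-sensing activator of metallothionein genes, had 5 probe sets and none passed. The brightest, 1418333_at, read 7.58, 7.85, 7.61 and 7.60 in the controls and 7.69, 7.85, 7.90 and 7.85 in the knockouts. Control 2 stood among the knockouts, so the groups overlapped. The log2 change was 0.16 (95% interval -0.019 to 0.35; limma adjusted p = 0.733). Probe sets 1429170_a_at and 1428979_at each had a change of 0.28 (limma adjusted p = 0.753 and 0.720), and the dimmest pair, 1440414_at and 1452990_at, had changes of 0.013 and -0.074 (limma adjusted p = 0.987 and 0.869).

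The exporter Slc30a1 encodes ZnT1 of the plasma membrane and, like the metallothioneins, is raised by zinc through MTF-1. Its brighter probe set, 1436164_at, read 8.79, 9.07, 8.74 and 8.88 in the controls and 8.71, 8.97, 9.27 and 8.65 in the knockouts. The knockouts held both the highest and the lowest value. The log2 change was 0.031 (95% interval -0.27 to 0.33; limma adjusted p = 0.976), an interval that lies wholly below the change of Mt1. The dimmer probe set, 1422786_at, read 7.26, 7.45, 7.22 and 7.12 in the controls and 7.14, 7.28, 7.98 and 6.83 in the knockouts, a log2 change of 0.046 (95% interval -0.40 to 0.49; limma adjusted p = 0.976). Without knockout 3 the changes were -0.093 and -0.18, and without knockout 4 they were 0.11 and 0.21.

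Knockout 3 was the highest of all 8 samples on both Slc30a1 probe sets, on the 3 brightest of Mtf1 and on Slc30a5. In that sample the mean deviation of 10 macrophage and T cell markers was 0.29, the highest of the 8 samples. The range of that score was -0.19 to 0.29 in knockouts and -0.19 to 0.14 in controls (two-sided exact permutation test, p = 0.571). The 13 enterocyte markers deviated by -0.039 in knockout 3, the lowest of its group, against -0.25 to -0.018 in controls. Knockout 3 was also the lowest of all 8 samples for the scores of liver (-0.32), crypt stem cell (-0.25) and pancreatic islet markers (-0.51), and smooth muscle markers deviated by 0.25. Their part in these values was not tested.

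Slc30a2 encodes ZnT2, which loads zinc into secretory granules and is strong in Paneth and pancreatic acinar cells. It read 8.98, 8.56, 8.48 and 8.94 in the controls and 8.69, 8.66, 8.38 and 9.09 in the knockouts. The groups covered nearly the same range. The log2 change was -0.036 (95% interval -0.39 to 0.31; limma adjusted p = 0.976). The Paneth score without Slc30a2 was 0.17 to 0.26 in controls and -0.56 to 0.10 in knockouts (two-sided exact permutation test, p = 0.0286), and without Slc30a2 and Pla2g2a it was -0.0025 to 0.26 and -0.25 to 0.020 (p = 0.0571 by the same exact test). The score of 19 measured exocrine pancreas markers of 25 listed ranged from -1.14 to 0.99 in controls and from -0.50 to 0.46 in knockouts (two-sided exact permutation test, p = 0.486). All 19 had a knockout mean below the control mean (median log2 change -0.33), and 0 passed the test. Klk1 and Pnliprp2 had the smallest p of the list, with log2 changes of -0.92 and -1.01 (limma adjusted p = 0.355 and 0.676). The groups did not overlap on that Klk1 probe set, while its dimmest changed by -0.094. Control 3, the lowest control for the exocrine score, was also the lowest control for Slc30a2. Knockout 3, the highest knockout for that score, was the lowest knockout for Slc30a2.

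Slc30a5 encodes ZnT5, which carries zinc into the early secretory pathway, where it supplies enzymes such as alkaline phosphatases. It read 10.73, 10.74, 10.55 and 10.57 in the controls and 10.74, 10.76, 10.98 and 10.87 in the knockouts. Only the lowest knockout fell within the control range, by a narrow margin. The means were 10.65 ± 0.10 and 10.84 ± 0.11 (SD, n = 4 each), a log2 change of 0.19 (SE 0.081, 95% interval 0.0078 to 0.37). The limma p was 0.0424 before and 0.692 after adjustment over all probe sets.

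The importers showed no difference past the threshold. Slc39a4 encodes ZIP4, whose loss causes the zinc deficiency disease acrodermatitis enteropathica. It read 10.59, 10.55, 10.85 and 10.59 in the controls and 10.96, 10.76, 10.81 and 10.60 in the knockouts, which overlapped. The log2 change was 0.13 (95% interval -0.077 to 0.35; limma adjusted p = 0.801). Slc39a5 encodes ZIP5, and read 10.38, 10.27, 10.40 and 10.36 in the controls and 10.31, 10.40, 10.38 and 10.23 in the knockouts. All 8 samples lay close together, and the log2 change of -0.023 had the narrowest interval of the members, -0.17 to 0.13 (limma adjusted p = 0.965).

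The rest of both transporter families was measured by 21 genes and 35 probe sets, Mt3 and Mt4 included. Slc30a10, which is named after zinc exporters but carries manganese out of cells, fell on both of its probe sets. Probe set 1439934_at read 9.03, 9.14, 8.67 and 9.03 in the controls and 7.71, 7.45, 7.94 and 7.68 in the knockouts, every knockout below every control, a log2 change of -1.27 (limma adjusted p = 0.00330). On 1438751_at the means were 8.49 ± 0.20 and 6.97 ± 0.19 (SD, n = 4 each), a log2 change of -1.52 (limma adjusted p = 0.00107). The other 20 genes, on 33 probe sets, had log2 changes between -0.16 and 0.30 with a median of 0.056. Of those probe sets 0 passed by limma, 0 had an unadjusted p under 0.05 and 0 had groups that did not overlap. The largest of these changes were in the importers Slc39a2 and Slc39a8, at 0.30 and 0.21 (limma adjusted p = 0.725 and 0.731).

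Zinc-dependent enzymes of the brush border and of the enterocyte included a single gene past the threshold. Of 15 listed genes 14 were measured, and 7 of these had an unadjusted limma p under 0.05, beside 1243 of all 18193 genes. Of the 7, Akp3, Alpi, Car2 and Folh1 had a lower knockout mean, and Anpep, Mep1b and Enpep a higher one. By the adjusted p, 1 of the 14 fell, 0 rose and 13 did not pass, with 10 above 0 and a median log2 change of 0.22. The gene that fell was Akp3, a duodenal alkaline phosphatase that holds zinc in its active site, with a log2 change of -3.00 (limma adjusted p = 0.00127). The zinc aminopeptidase Anpep had a change of 0.43 (limma adjusted p = 0.476). Alpi and Car2 had changes of -0.22 and -0.54 (limma adjusted p = 0.599 and 0.618). Beside them, the 13 enterocyte markers all had a knockout mean above the control mean, with a median log2 change of 0.18 and 0 past the threshold (two-sided exact permutation test on their score, p = 0.0571). Among 5 cysteine-rich or metal-binding proteins, the calcium-binding protein S100g fell by 1.35 on the log2 scale (limma adjusted p = 0.00950), and the other 4 did not pass, with the LIM protein Csrp1 at 0.22 (limma adjusted p = 0.686).

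Other signals known to act on metallothionein genes were read from lists of their usual target genes. None of these lists had a gene past the threshold. By the most intense probe set, 2 of all 18193 genes passed as higher and 10 as lower, so 0 in a list of this size says little. For glucocorticoids, 11 genes had a median log2 change of 0.042 with 6 above 0, Tsc22d3 (the leucine zipper GILZ) at 0.36 and Hsd11b2, which inactivates corticosterone, at 0.23 (limma adjusted p = 0.762 and 0.660). For oxidative stress, 12 Nrf2 targets and regulators had a median of 0.059 with 8 above 0, sulfiredoxin Srxn1 at 0.14 and the Nrf2 inhibitor Keap1 at 0.070 (limma adjusted p = 0.716 and 0.834). Dimmer Srxn1 probe sets were at 0.15, 0.20 and 0.22 (limma adjusted p = 0.772, 0.686 and 0.694), and a dimmer Keap1 probe set was at 0.029 (limma adjusted p = 0.959). For the acute phase, 12 genes had a median of -0.0091 with 6 above 0, the cytokine Il6 at -0.18 and the antimicrobial lectin Reg3b at 0.58, neither past the threshold. The 11 heat shock and unfolded protein genes had a median of -0.041 with 4 above 0. The stress factor Ddit3 was at 0.16 and the heat shock gene Hsph1 at -0.25 (limma adjusted p = 0.823 and 0.862). A dimmer Ddit3 probe set, 1443897_at, went the other way, at -0.15 (limma adjusted p = 0.728). The 13 copper-handling genes had a median of -0.069 with 4 above 0, with the copper chaperone Cox17 at 0.16 and the copper pump Atp7a at -0.15 (limma adjusted p = 0.673 and 0.761). A dimmer Cox17 probe set, 1434871_at, was at -0.063 (limma adjusted p = 0.925). The median over all genes was 0.0046. The part of these signals in the change of Mt1 was not tested.

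The genes whose levels followed the brighter Mt1 probe set most closely were taken by Pearson's r over the 8 samples, among 10550 genes with a mean level of at least 6. They were Dhodh, a mitochondrial enzyme of pyrimidine synthesis (r = 0.972), Elmo3 (r = 0.966), Zfp770 (r = 0.964), the skeletal actin gene Acta1 (r = 0.958) and 2610001J05Rik (r = 0.956). Acta1 was the other gene with a higher level past the threshold, with a log2 change of 0.83 (limma adjusted p = 0.00990). Beside these, all 13 smooth muscle markers had a higher knockout mean (median log2 change 0.21, 0 past the threshold). Their scores were -0.19 to -0.030 in controls and -0.090 to 0.27 in knockouts (two-sided exact permutation test, p = 0.0571). Synm and Actg2 had the smallest p of that list, with log2 changes of 0.40 and 0.52 (limma adjusted p = 0.564 and 0.679). All 10 measured markers of Brunner glands and stomach had a lower knockout mean (median -0.28, 0 past the threshold). Their scores were -0.084 to 0.48 in controls and -0.37 to -0.019 in knockouts (two-sided exact permutation test, p = 0.0571). Sult1c2 and Egf had the smallest p of this list, with log2 changes of -1.03 and -0.53 (limma adjusted p = 0.0862 and 0.676). For Sult1c2 every knockout lay below every control. The part of smooth muscle, Brunner gland and stomach RNA in the levels of Mt1 and Acta1 was not tested. The other 4 genes most like Mt1 had changes of 0.14 to 0.23 and did not pass. Dimmer probe sets of Dhodh, 2610001J05Rik and Zfp770 had changes of 0.022, 0.034 and -0.12 (limma adjusted p = 0.965, 0.962 and 0.850). Their mean levels were 6.05, 3.21 and 3.99. On the probe sets used for r, all 5 genes share with Mt1 the step between the same 2 groups. The values of r are therefore a description.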

How the data were processed

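Per the labels' protocols, column-purified and DNase-treated RNA was turned into biotin-labelled cRNA for Affymetrix arrays. The authors deposited log2 expression values by probe set. Per the submitters' processing notes, Partek 6.4 was among the tools; how background was removed and arrays were normalized is not given in the sources used. Values spanned 2.55 to 14.83, which is why they were read as log2, and array medians of 5.23 to 5.27 would hide a change common to every transcript. Pearson's r between arrays, across probe sets, was 0.990 to 0.996, and 0 pairs of arrays were identical. For arrays, the number of samples limits the precision.

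After 64 control probe sets were left out, 45037 were fitted in R 4.3.3 with limma 3.58.1 (lmFit, eBayes), knockout minus control, two-sided, with no filter or block and Benjamini-Hochberg adjustment over all of them. The labels call the samples biological replicates. Symbols came from the platform annotation, where 34945 probe sets had 1 symbol, 932 several and 9160 none; lists used the probe set of each gene with the highest mean over the 8 samples. A marker score averages, over the genes of a list, how far a sample lies from the mean of all samples; permutation p-values of the scores are unadjusted. Promoters came from RefSeq. The fit was tested on simulated data, and figures were drawn with matplotlib 3.10.9.

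The named genes were all members, Pdx1, Vil1, Slc30a10, each gene of a list past the threshold, and the 5 most like Mt1. Up to 2 genes with the smallest p were also named for most lists. For the islet, crypt stem cell, macrophage and T cell, and liver lists only scores were given. Pla2g2a, Ang4, Itln1, Lyz1, Mmp7, Apoa1, Clps, Reg3b and the neighbours of Mt1 and Mt2 were named after their values were seen. So were Alpi, Car2, Folh1, Mep1b and Enpep. Members and lists were chosen with earlier results of these data known. Replicate numbers did not pair the samples: deviations of the same-numbered samples correlated at -0.089, -0.12, -0.18 and 0.076. Control 2 and knockout 3, whose deviations correlated at 0.60, were also left out together. The alternatives were a replicate block, other scalings, floors, filters, priors and thresholds, covariates, and samples left out.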

Additional observations from a re-analysis of the deposited data

Results flagged for a closer look

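In 8 of 104 groups of 4 samples, over the probe sets of the members, Pdx1, Vil1 and the related families, a single sample stood far from the others by Dixon's test, which flags about 1 in 20 groups by chance. Among the members these were knockout 2 for the brighter Mt1 probe set, at 13.80 with the nearest knockout at 13.66, control 2 for Mtf1 1418333_at, at 7.85 with the nearest control at 7.61, and control 3 for Slc39a4, at 10.85 with the nearest control at 10.59. For Slc39a3, knockout 1 read 6.67 on 1417881_at with the nearest knockout at 6.87, control 4 read 6.68 on the same probe set with the nearest control at 6.85, and knockout 3 read 7.51 on 1417882_at with the nearest knockout at 7.23. Control 3 read 5.21 for Slc39a10 on 1439041_at, with the nearest control at 5.59, and 3.58 for Slc39a6 on 1441949_x_at, with the nearest control at 3.42. The spread of Mt2 in the knockouts was not among them, since no single sample stood apart.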

How the results depend on the processing

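The brighter Mt1 probe set was past the threshold under all 20 alternatives, with log2 changes of 1.45 to 1.57 and adjusted p of 1.79e-06 to 0.0122 (the mean of both Mt1 probe sets had a change of 1.32 and also passed), and 0 member probe sets were lower under any of them. The count of higher member probe sets was 1 as reported and 2 with a trended and robust prior, with array weights, at an adjusted p under 0.1, and in a pair of fits chosen after seeing the data, without control 2 and knockout 3 together and with the Paneth score without Pla2g2a as a covariate. With each sample left out in turn it was 1 to 2, with 2 without knockout 3 or without control 4. The added probe set was the dimmer one of Mt1. The count over all probe sets, 19 as reported, was 4 with values raised to a floor of 5, 2 with an ordinary linear model, 6 with the Paneth score as a covariate, with or without Pla2g2a in it, 29 at an adjusted p under 0.1, and 12 with the mean of the probe sets of each gene. With the replicate block, 1 member probe set was higher and 24 of all passed. Of the 14 member probe sets, 3 kept the sign of their change under every alternative, both of Mt1 and Mtf1 1428979_at. Mt2 turned only with the Paneth score as a covariate, to 0.52, and was -0.77 with Pla2g2a left out of that score. Slc30a2 was left out of the Paneth score wherever it served as a covariate. With Pla2g2a kept, that covariate was 0.17 to 0.26 in controls and -0.56 to 0.10 in knockouts. It thus separated the groups, and its fits cannot tell it apart from the knockout. For the dimmer Mt1 probe set the adjusted p was 0.424 with an ordinary linear model, 0.465 with the floor of 5 and 1.00 with the Paneth score as a covariate. The causes of these shifts were not tested. How much of a dim signal is background is unknown, and Mtf1 1452990_at lay under the floor of 5 and gave no value there.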

Other observations

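By the same measure as for Mt1, and chosen after the values were seen, the genes whose levels followed Mt2 most closely over the 8 samples were Sspo (r = 0.944), Gpalpp1 (r = 0.934), Tmco4 (r = 0.930), Hrob (r = 0.923) and Efcab14 (r = 0.920). None of the 5 passed the test between knockout and control, and none was among the 5 most like Mt1. All of these values are over samples that share 2 groups and are a description.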
